A study of Homo sapiens with 12 samples.

Results

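The messenger RNAs of CENPA and of 8 genes whose products load, chaperone or misplace it were followed in 22Rv1 cells, a human prostate carcinoma line, after knockdown of CENPA. The set held CENPA, HJURP, MIS18A, OIP5, RBBP4, RBBP7, NPM1, DAXX and ATRX. The members were chosen by gene symbol from a table of 14828 genes, and all 9 had a row in it. All 9 also passed the filter on low values. The libraries came from cells that stably carried a doxycycline-inducible pTRIPZ lentiviral vector for a nontargeting short hairpin RNA (shNT) or for one of 2 CENPA-targeted hairpins (shCENPA1 and shCENPA2). By the study's methods the transduced cells were kept in puromycin, with no word on whether they were pools or clones, and doxycycline at 2 µg/ml for 72 h gave knockdown, so the vector was shared by all groups and the nontargeting hairpin was the control. Poly(A) RNA was sequenced from 2 libraries per hairpin, and each library was run in 2 lanes, which were averaged here so that n = 2 libraries per group.

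CENPA is the histone H3 variant that marks the centromere, the place on each chromosome where the kinetochore is built. New CENPA is carried by its dedicated chaperone HJURP and is deposited after mitosis at sites primed by the Mis18 complex, which contains MIS18A and OIP5 (also called MIS18B). RBBP4 and RBBP7 are histone-binding WD40 proteins that act with this complex and also sit in many other chromatin complexes. NPM1 (nucleophosmin) is an abundant nucleolar histone chaperone found with soluble CENPA, and DAXX with ATRX forms the chaperone of histone H3.3 that can carry excess CENPA to chromosome arms.

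CENPA fell with both hairpins, and so did the chaperone HJURP and the Mis18 subunits OIP5 and MIS18A, which no hairpin targeted. HJURP was reduced to 38.5% and 30.6% of its shNT level with shCENPA1 and shCENPA2, OIP5 to 48.0% and 35.1%, and MIS18A to 67.9% and 59.0%. RBBP4, RBBP7, DAXX and ATRX did not pass the test with either hairpin, and NPM1 passed it with shCENPA2 at 74.9% of its shNT level. Values are log2 RPKM, in which reads are scaled to gene length and to library size before taking logarithms. The length taken for each gene is not given in the sources used here and may differ from that of the expressed mRNA. Levels of different genes, and ratios between genes, therefore hold on the RPKM scale only. Changes of one gene between hairpins do not depend on that length. A gene passed the test when limma, fitted to all 6 libraries and 14624 genes, gave an adjusted p under 0.05. With shCENPA1, 4 of 9 members passed downward, where 4.45% of all genes tested did, and 0 of 9 passed upward, where 2.69% did. With shCENPA2, 5 of 9 passed downward against 10.5% of all genes, and 0 of 9 upward against 8.05%. At an unadjusted p under 0.05 the limma fit also held 0 members that were higher with either hairpin, and limma voom on recovered reads called 0 upward. A change of more than 2-fold in addition was reached by 3 members with each hairpin, CENPA, HJURP and OIP5, against 1.83% of all genes lower with shCENPA1 and 4.45% lower with shCENPA2. Each of these downward counts includes CENPA, the target of both hairpins, whose fall was set by the design. The median log2 fold change of the 9 members was -0.22 and -0.42, and that of all genes tested was 0.003 and 0.012. Both comparisons use the same shNT libraries.

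**Figure D1:**
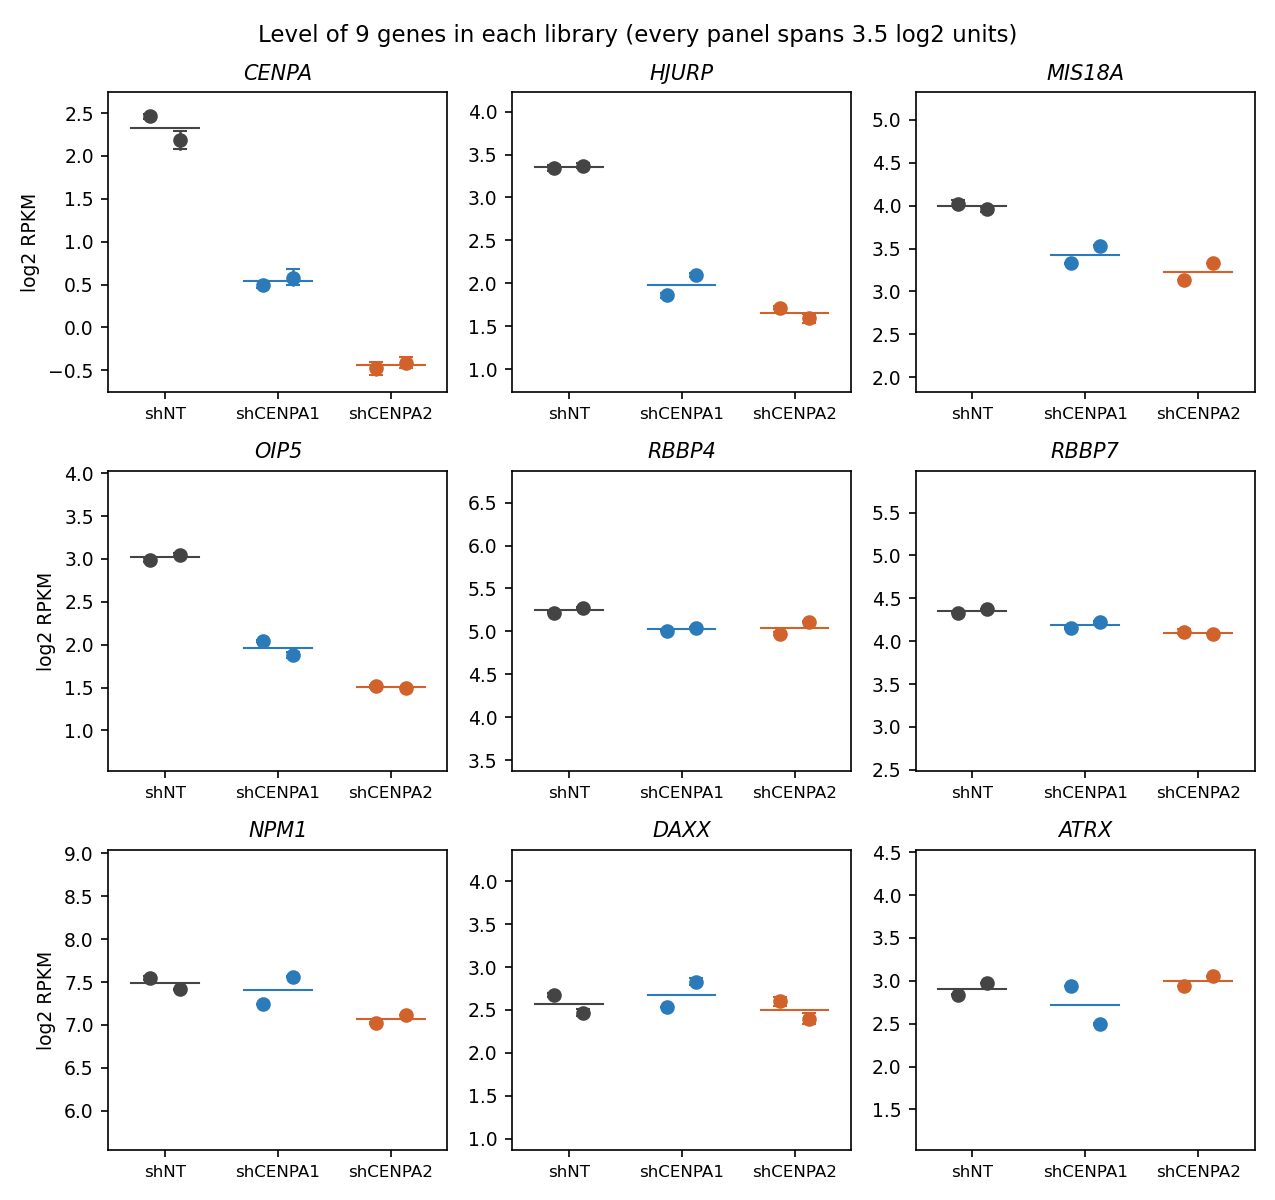
Level of each of the 9 genes in log2 RPKM (vertical axis, 3.5 units in every panel) in the libraries of shNT, shCENPA1 and shCENPA2. Points are libraries (mean of 2 lanes), ticks joined by a line are the lanes, and horizontal lines are group means. For CENPA, HJURP, OIP5, MIS18A, RBBP4 and RBBP7 all 4 knockdown libraries sit below both shNT libraries, by small steps for RBBP4 and RBBP7, which did not pass the test. For NPM1 the shCENPA1 libraries span the shNT libraries, and for DAXX and ATRX the groups overlap. The share of all genes with such an order was not counted.

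The libraries held 79172294 to 133074655 reads on genes. The members rested on 118 to 77684 reads per library, and the lanes of one library differed by at most 0.21 log2 units for any of them. In 22 of 27 pairs of libraries of one hairpin, the difference between libraries was above its counting error. For CENPA it was below it with both CENPA-targeted hairpins (0.08 against 0.126 and 0.07 against 0.167 log2 units), where reads were fewest. The labels do not say whether the libraries of a hairpin came from separate cultures, and the p-values then measure only the spread between these libraries. For one gene with 2 libraries on each side, the smallest two-sided p of an exact permutation test is 0.33, so the calls rest on the fit across all genes. All 10 markers of prostate epithelium checked had values, and their summed level was 9.83 to 9.90 log2 RPKM in the 6 libraries. Of 10 markers of basal, stromal, immune and endothelial cells only COL1A1 and DCN had values. Their summed level was 0.13 to 0.26 with shNT, 0.59 to 0.68 with shCENPA1 and 0.37 to 0.70 with shCENPA2. DCN was 1.93 and 1.48 log2 units higher with the hairpins (limma adjusted p = 0.00271 and 0.0053). With shNT it stood near the filter on low values, at -2.90 and -3.19 log2 RPKM, and it rested on 119 to 647 reads per library. The part of these genes in the results was not tested.

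The promoters of CENPA, HJURP and OIP5 are shown here because these members fell more than 2-fold with both hairpins. CENPA is the gene the hairpins target, so its fall is no sign of a promoter element shared with the others. The part of these promoters in the falls was not tested. Each sequence is the 250 bases before the RefSeq transcription start (GRCh38.p14), read 5′ to 3′ on the strand of the gene, from chr2:26785806-26786055 (plus strand) for CENPA, chr2:233854536-233854785 (minus strand) for HJURP and chr15:41332592-41332841 (minus strand) for OIP5. Capitals mark matches on either strand to the cell cycle homology region (CHR, TTTGAA or TTCGAA), the CCAAT box (CCAAT, or ATTGG when read on the other strand) and E2F site letters (TTTGGCGC, TTTCCCGC, TTTGCCGC or TTTCGCGC).
CENPA: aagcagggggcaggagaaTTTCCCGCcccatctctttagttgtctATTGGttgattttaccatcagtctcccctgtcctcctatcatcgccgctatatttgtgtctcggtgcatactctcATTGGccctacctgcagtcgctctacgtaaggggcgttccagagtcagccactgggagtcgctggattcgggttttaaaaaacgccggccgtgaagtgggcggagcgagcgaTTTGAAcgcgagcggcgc
HJURP: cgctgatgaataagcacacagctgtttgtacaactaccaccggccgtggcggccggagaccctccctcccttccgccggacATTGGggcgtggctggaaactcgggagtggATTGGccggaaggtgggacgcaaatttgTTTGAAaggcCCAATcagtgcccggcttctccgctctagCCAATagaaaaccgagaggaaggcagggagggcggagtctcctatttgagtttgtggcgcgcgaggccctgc
OIP5: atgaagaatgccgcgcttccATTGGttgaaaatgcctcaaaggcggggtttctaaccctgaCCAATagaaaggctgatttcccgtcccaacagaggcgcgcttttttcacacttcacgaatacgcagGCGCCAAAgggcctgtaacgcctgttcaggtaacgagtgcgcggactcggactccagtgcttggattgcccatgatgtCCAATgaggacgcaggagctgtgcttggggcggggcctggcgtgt
With the start at position 0, the CHR letters lay at -18 to -13 in CENPA and at -111 to -106 in HJURP. In OIP5 they lay just past the start, at 1 to 6, outside the stretch shown. CCAAT letters occurred at 2 places in the CENPA window, 4 in HJURP and 3 in OIP5, and E2F letters at -232 in CENPA and, on the opposite strand, at -123 in OIP5. Over 35116 RefSeq windows of 250 bases before to 50 bases after a start, 16.4% held CHR letters, 34.6% held CCAAT and 3.31% held E2F letters. Windows were at hand for 6 of the 9 members, but not for MIS18A, DAXX or ATRX, so the letters cannot be set against the changes over the whole set. NPM1 also held CHR letters, at -112, and CCAAT letters were found in all 6 members with a window, including RBBP4 and RBBP7. The shares above are per window, and NPM1, RBBP4 and RBBP7 had 2 windows each. By window, 8 of 9 held CCAAT, 4 of 9 CHR letters and 2 of 9 E2F letters. Each match describes letters in a window and not a bound site.

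CENPA itself, the targeted gene (chromosome 2, 26764289 to 26801067, plus strand), was lower in every knockdown library. It measured 2.46 and 2.18 log2 RPKM with shNT (1186 and 764 reads). With shCENPA1 it measured 0.50 and 0.58 (226 and 308 reads), and with shCENPA2 -0.47 and -0.41 (118 and 201 reads). The groups did not overlap, and shCENPA2 gave the lowest levels. Relative to shNT, CENPA fell by 1.78 log2 units under shCENPA1 (SE 0.16, limma adjusted p = 0.000287) and fell by 2.76 with shCENPA2 (SE 0.16, limma adjusted p = 1.13e-05). CENPA mRNA thus stood at 29.1% (95% confidence interval 22.6 to 37.5) and 14.7% (11.5 to 19.0) of its shNT level. CENPA shares 16943 bases of its annotated GENCODE span with SLC35F6 on the same strand, and SLC35F6 changed by 0.13 and 0.31 (limma adjusted p = 0.475 and 0.0596). That span begins upstream of the RefSeq start used for the promoter, which follows position 26786055. The gene model used in the counting may differ from both, so it is not known whether the counts of CENPA covered the shared bases.

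HJURP, the chaperone that binds CENPA with histone H4 and hands it to the centromere (chromosome 2, 233833416 to 233854566, minus strand), measured 3.34 and 3.37 log2 RPKM with shNT, 1.86 and 2.10 with shCENPA1 and 1.71 and 1.59 with shCENPA2. All knockdown libraries were more than 1 log2 unit below the shNT libraries, and the 2 hairpins did not overlap. HJURP fell by 1.38 with shCENPA1 (95% confidence interval -1.66 to -1.10, limma adjusted p = 0.000266) and fell by 1.71 with shCENPA2 (-1.99 to -1.43, limma adjusted p = 2.87e-05). Reads on HJURP were 1109 to 4506 per library.

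OIP5, the Mis18 subunit that pairs with MIS18A (chromosome 15, 41309273 to 41332591, minus strand), measured 2.99 and 3.05 log2 RPKM with shNT, 2.04 and 1.88 with shCENPA1 and 1.52 and 1.50 with shCENPA2. The libraries fell into 3 separate levels, one per hairpin. OIP5 fell by 1.06 log2 units with shCENPA1 (-1.32 to -0.80, limma adjusted p = 0.000766) and fell by 1.51 with shCENPA2 (-1.77 to -1.25, limma adjusted p = 4.25e-05). On the opposite strand it overlaps 2 other genes of the table, OIP5-AS1 over 13120 bases and NUSAP1 over 11798 bases. OIP5-AS1, a noncoding RNA, changed by -0.15 and 0.05 (limma adjusted p = 0.455 and 0.808), and NUSAP1, a spindle protein gene, by -1.35 and -1.76 (limma adjusted p = 9.21e-05 and 6.3e-06). The libraries kept the strand of the RNA, but whether the counting used it is not given in the sources used here, so that OIP5 reads cannot be fully told apart from those of its overlapping neighbours.

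MIS18A, the other core subunit of the complex (chromosome 21, 32268228 to 32279049, minus strand), measured 4.02 and 3.96 log2 RPKM with shNT, 3.33 and 3.53 with shCENPA1 and 3.13 and 3.33 with shCENPA2. Both hairpins lay below shNT, and their libraries touched each other at 3.33. It fell by 0.56 with shCENPA1 (SE 0.11, limma adjusted p = 0.0163) and fell by 0.76 with shCENPA2 (SE 0.11, limma adjusted p = 0.00151). The call with shCENPA1 was lost without library 1 or 2 of shNT (limma adjusted p = 0.113 and 0.0775), without library 1 of shCENPA1 (0.0886) and without a trend in the variance (0.0611), with values of -0.59 to -0.46. In bulk RNA, fewer cells that express a gene and less of its RNA per cell cannot be told apart, which holds for every member here.

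RBBP4 (chromosome 1, 32651142 to 32686211, plus strand) measured 5.22 and 5.27 log2 RPKM with shNT, 5.01 and 5.04 with shCENPA1 and 4.97 and 5.11 with shCENPA2. Its close relative RBBP7 (chromosome X, 16839283 to 16870362, minus strand) measured 4.33 and 4.38 with shNT, 4.15 and 4.23 with shCENPA1 and 4.11 and 4.09 with shCENPA2. For both genes the knockdown libraries lay below both shNT libraries, by small steps that did not pass the test over all genes. RBBP4 stood at 85.9% and 86.8% of its shNT level (limma adjusted p = 0.182 and 0.143), with 95% confidence intervals of 74.9 to 98.5 and 75.7 to 99.5. RBBP7 stood at 89.3% and 83.9% (limma adjusted p = 0.307 and 0.0714), with intervals of 78.1 to 102 and 73.4 to 95.9. These intervals are per gene and not adjusted for the number of genes. When the lanes entered the fit as separate runs with an estimated correlation, RBBP4 passed with both hairpins (limma adjusted p = 0.018 and 0.0153) and RBBP7 with shCENPA2 (0.00939).

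NPM1 (chromosome 5, 171387116 to 171411810, plus strand) was the most abundant member. It measured 7.55 and 7.42 log2 RPKM with shNT, 7.25 and 7.56 with shCENPA1 and 7.02 and 7.12 with shCENPA2. The shCENPA1 libraries spanned the shNT libraries, and the shCENPA2 libraries lay below them. The difference was -0.08 with shCENPA1 (limma adjusted p = 0.741) and -0.42 with shCENPA2 (SE 0.12, limma adjusted p = 0.0433). The call with shCENPA2 was lost without library 1 or 2 of shNT (limma adjusted p = 0.267 and 0.111) and without library 1 or 2 of shCENPA2 (0.159 and 0.0809), as well as with median-centred libraries (0.0687), without a variance trend (0.101) and with the replicate block (0.0575), at -0.48 to -0.35. NPM1 has processed pseudogenes whose reads can be confused with its own, and one of them, NPM1P27, changed by -0.06 with shCENPA1 and by -0.72 with shCENPA2 (limma adjusted p = 0.84 and 0.00603).

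DAXX (chromosome 6, 33318558 to 33323016, minus strand) measured 2.67 and 2.47 log2 RPKM with shNT, 2.53 and 2.83 with shCENPA1 and 2.60 and 2.40 with shCENPA2. ATRX, its partner and an ATP-dependent chromatin remodeller (chromosome X, 77504880 to 77786233, minus strand), measured 2.84 and 2.98 with shNT, 2.94 and 2.50 with shCENPA1 and 2.94 and 3.05 with shCENPA2. The groups overlapped for both genes. DAXX stood at 108% (95% confidence interval 87.0 to 135) and 95.2% (76.5 to 118) of its shNT level, and ATRX differed from it by -0.19 (-0.52 to 0.14) and 0.09 (-0.25 to 0.42) log2 units. Neither passed the test (limma adjusted p = 0.68 and 0.771 for DAXX, 0.499 and 0.735 for ATRX), and the intervals do not contain a fall to the level of OIP5 or HJURP.

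**Figure D2:**
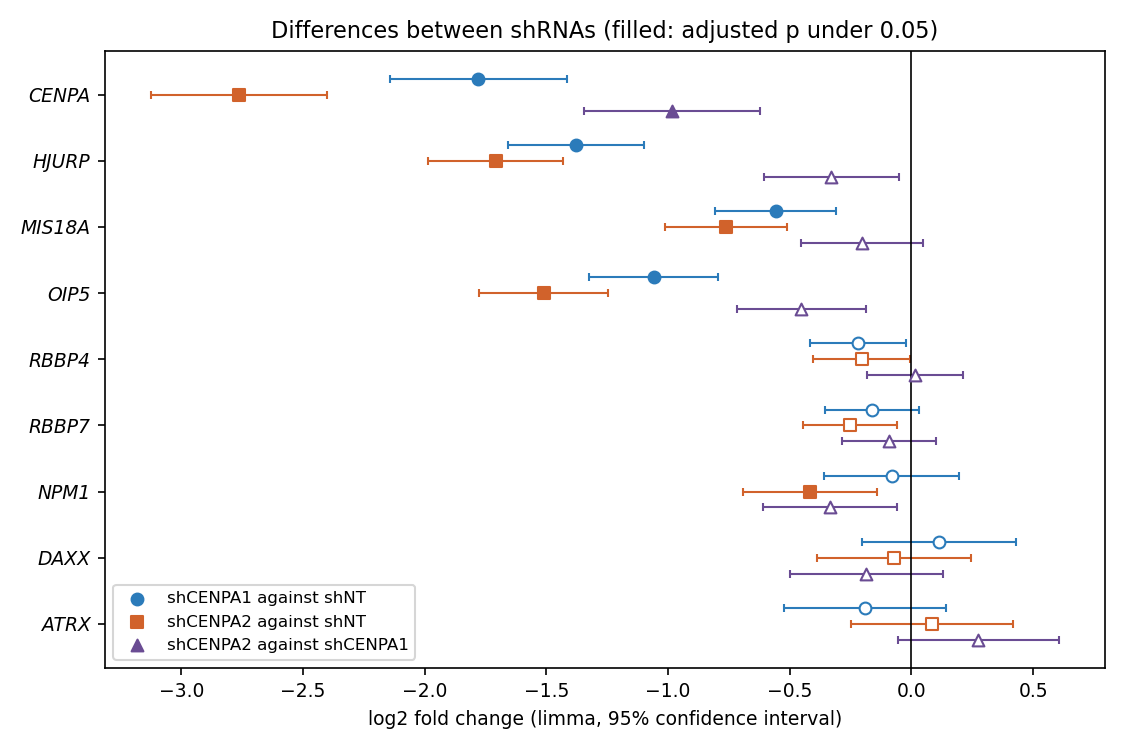
Log2 fold change (horizontal axis) of each member from limma for shCENPA1 against shNT (circles), shCENPA2 against shNT (squares) and shCENPA2 against shCENPA1 (triangles), with 95% confidence intervals per gene. Filled symbols have an adjusted p under 0.05, which for shCENPA2 against shCENPA1 holds for CENPA alone, at -0.98.

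The hairpins were next compared with each other, since they differed in how far CENPA fell. CENPA was lower with shCENPA2, by 0.98 on the log2 scale (SE 0.16, limma adjusted p = 0.0209), which is 50.6% (95% confidence interval 39.3 to 65.0) of its shCENPA1 level. This was 1 of 9 members past the test downward, against 1.03% of all genes. That member is the gene both hairpins target, and the other 8 did not pass. HJURP, OIP5 and MIS18A were also lower with shCENPA2, at -0.33 (-0.61 to -0.05), -0.45 (-0.72 to -0.19) and -0.20 (-0.45 to 0.05), and did not pass (limma adjusted p = 0.289, 0.118 and 0.485). The intervals thus leave room for both no difference and a further fall of MIS18A, and the unadjusted p was 0.0249 for HJURP and 0.00364 for OIP5. NPM1 differed by -0.34 (limma adjusted p = 0.275), ATRX by 0.28 (0.472), DAXX by -0.18 (0.624), RBBP7 by -0.09 (0.703) and RBBP4 by 0.02 (0.968). The CENPA call was lost without library 1 of shCENPA1 (-1.02, limma adjusted p = 0.0908), library 2 of shCENPA1 (-0.94, 0.212) or library 2 of shCENPA2 (-1.02, 0.0571). A hairpin's other effects and the depth of its knockdown cannot be told apart with one transduced line per hairpin.

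The order of the levels in RPKM changed with knockdown. With shNT it ran from NPM1 (7.48 ± 0.09 log2 RPKM, SD, n = 2) through RBBP4 (5.25 ± 0.04), RBBP7 (4.35 ± 0.04), MIS18A (3.99 ± 0.05), HJURP (3.36 ± 0.02), OIP5 (3.02 ± 0.05), ATRX (2.91 ± 0.10) and DAXX (2.57 ± 0.14) to CENPA (2.32 ± 0.20). The libraries of neighbouring genes did not overlap, though OIP5 (2.99 at its lowest) and ATRX (2.98 at its highest) nearly met, as did DAXX (2.47 at its lowest) and CENPA (2.46 at its highest). HJURP and OIP5 moved below ATRX and DAXX with both hairpins. With shCENPA1, ATRX (2.72 ± 0.31) and DAXX (2.68 ± 0.21) overlapped, as did HJURP (1.98 ± 0.17) and OIP5 (1.96 ± 0.11). With shCENPA2, HJURP (1.65 ± 0.09) and OIP5 (1.51 ± 0.01) stood apart, and CENPA (-0.44 ± 0.05) was the lowest member in every group.

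Ratios within a library carry no difference in depth between libraries. HJURP mRNA over CENPA mRNA, chaperone over cargo, was 0.88 and 1.19 on the log2 scale with shNT, 1.36 and 1.51 with shCENPA1 and 2.19 and 1.99 with shCENPA2. In linear terms this was 2.05, 2.70 and 4.26 HJURP per CENPA (RPKM over RPKM), so the ratio rose although HJURP itself fell. The rise was 0.40 and 1.06 on the log2 scale, against a pooled SD of 0.16 between libraries, and the groups did not overlap. The rise depends on the low CENPA values, since with 1 added to every RPKM it was 0.10 and 0.35. DAXX over HJURP, the alternative chaperone over the dedicated one, went from -0.67 and -0.90 with shNT to 0.67 and 0.73 with shCENPA1 and 0.89 and 0.81 with shCENPA2. In RPKM, DAXX was therefore below HJURP with shNT, at 0.579 of its level, and above it with the hairpins, at 1.63 and 1.80. HJURP fell, and DAXX did not pass the test in either direction. RBBP7 over RBBP4 was -0.89 in each library of shNT, -0.86 and -0.81 with shCENPA1 and -0.87 and -1.02 with shCENPA2. Its differences from shNT, 0.06 and -0.05, were within the pooled SD of 0.07.

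**Figure D3:**
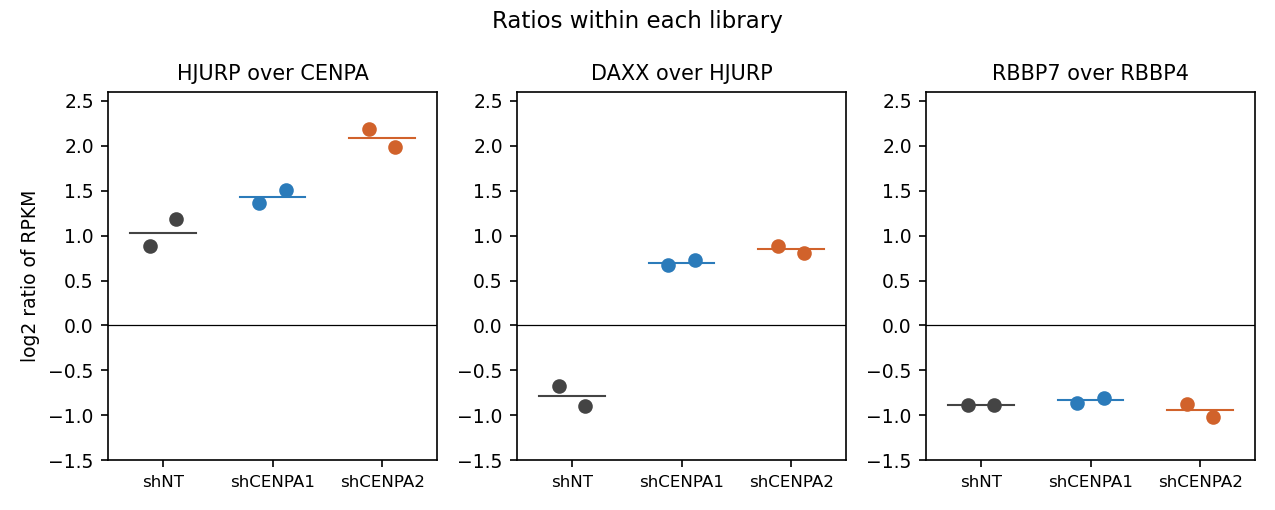
Log2 ratio of RPKM values within each library (vertical axis) for HJURP over CENPA, DAXX over HJURP and RBBP7 over RBBP4, by hairpin. Points are libraries and lines group means. HJURP over CENPA climbs from 1.03 with shNT to 2.09 with shCENPA2, DAXX over HJURP crosses 0, and RBBP7 over RBBP4 stays between -1.02 and -0.81.

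Further genes of CENPA licensing and loading included both genes that fell and genes that did not pass the test. Of 19 such genes, 7 passed downward and 0 upward with shCENPA1 (median log2 fold change -0.17), and 8 passed downward and 0 upward with shCENPA2 (median -0.22). Of all genes tested, 4.45% and 10.5% passed downward and 2.69% and 8.05% upward. At an unadjusted p under 0.05 the limma fit held 0 of the 19 upward with either hairpin, and voom called 0 upward. CENPN, which reads the CENPA nucleosome, fell with both hairpins (-0.70 and -0.79, limma adjusted p = 0.00376 and 0.000891), as did CENPI, another subunit of the inner centromere network (-1.51 and -1.53). CENPC, which binds the CENPA nucleosome and the Mis18 complex, changed by -0.10 and 0.05, and CENPB, which binds a DNA box in alpha satellite, by 0.13 and 0.00; neither passed. The kinase PLK1, which licenses loading in G1, fell by over 1 log2 unit (-1.15 and -1.41). CDK1 and its partner CCNB1, which hold loading back until mitosis ends, fell too (-1.16 and -1.66 for CDK1, -1.11 and -1.40 for CCNB1). CDK1 also passed the test between the hairpins, at -0.50 with shCENPA2 against shCENPA1 (limma adjusted p = 0.0364). RACGAP1 and ECT2, a GTPase regulator pair of cytokinesis tied to the upkeep of new CENPA, fell by similar amounts (-1.06 and -1.23 for RACGAP1, -1.04 and -1.31 for ECT2).

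The rest of that list passed the test once. SSRP1, a subunit of the histone chaperone FACT, fell by 0.36 with shCENPA2 (limma adjusted p = 0.0202) and stood at -0.20 with shCENPA1 (0.23). Its partner SUPT16H stood at -0.17 and -0.22, the remodeller CHD1 at -0.24 and -0.34, and RSF1 and SMARCA5 of the RSF remodeller at -0.14 and -0.03 and at -0.05 and 0.03. The acetyltransferase KAT7 stood at -0.08 and -0.06 and the SUMO protease SENP6 at -0.14 and -0.07. CUL4A, RBX1 and COPS8, parts of a ubiquitin ligase assembly tied to CENPA loading, stood at -0.01 and -0.04, -0.10 and -0.09, and 0.04 and -0.05.

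**Figure D4:**
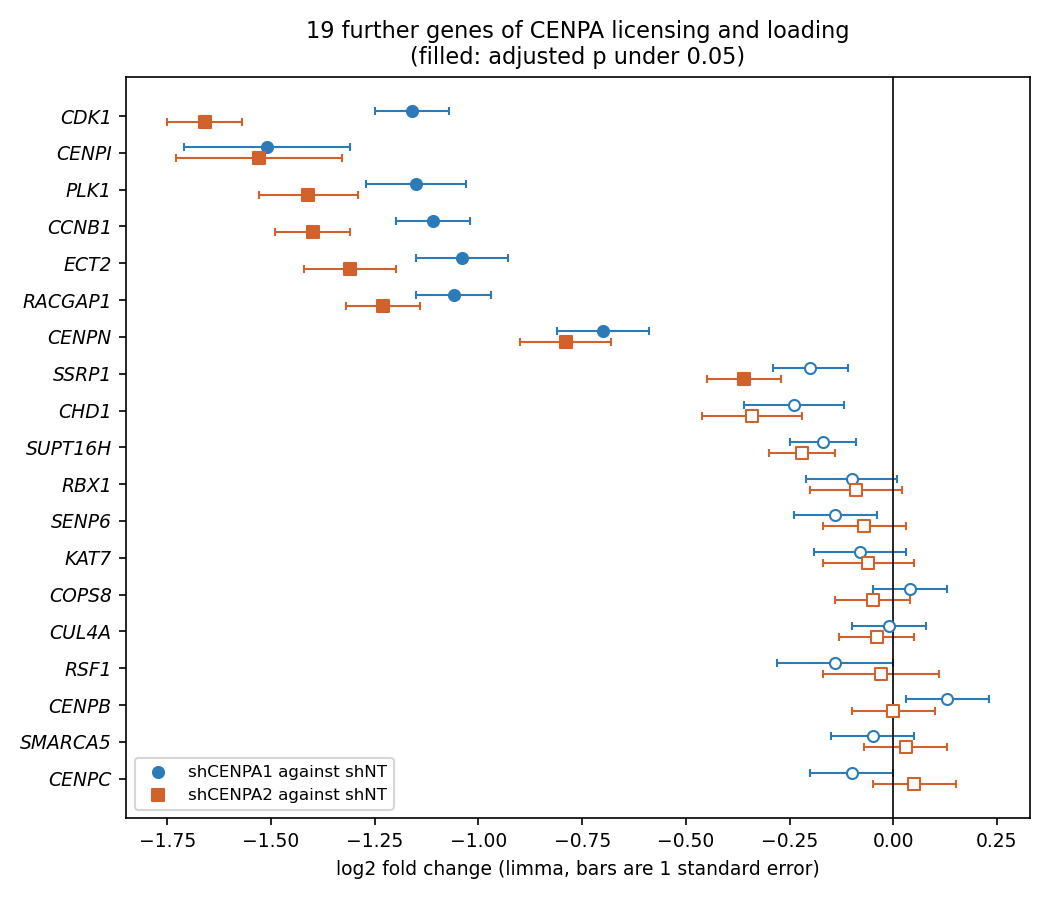
Log2 fold change (horizontal axis) of 19 further genes of CENPA licensing and loading for shCENPA1 (circles) and shCENPA2 (squares) against shNT, with bars of 1 SE, ordered by the shCENPA2 value. Filled symbols have an adjusted p under 0.05. CDK1, CENPI, PLK1, CCNB1, ECT2 and RACGAP1 lie beyond -1 with both hairpins, and the genes from CHD1 down to CENPC have open symbols.

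The partners of the shared members were taken as whole lists. Of 7 genes of histone H3.3 and its deposition, the pathway of DAXX and ATRX, 0 passed with either hairpin by limma or by voom. Over all genes tested, 4.45% and 10.5% passed downward and 2.69% and 8.05% upward, so 0 of 7 does not set this list apart. At an unadjusted limma p under 0.05, 1 of the 7 was lower with each hairpin (median log2 fold change -0.01 and -0.06). Of 23 partners of RBBP4 and RBBP7 in chromatin complexes, 4 passed downward with shCENPA1 and 5 with shCENPA2, and 0 upward by limma or voom (median -0.11 and -0.08), where 4.45% and 10.5% of all genes passed downward. At an unadjusted limma p under 0.05, 7 and 8 were lower and 0 and 1 higher. Those lower with both were CHAF1B (-0.84 and -1.30) and CHAF1A (-0.62 and -0.74), the subunits that join RBBP4 in the replication-coupled chaperone CAF-1, EZH2 (-0.73 and -0.73), the methyltransferase of PRC2, and LIN9 (-0.61 and -0.86) of the MuvB complex, which binds CHR elements. Of NPM2, NPM3 and NCL, relatives or nucleolar partners of NPM1, 0 of 3 passed with either hairpin by limma or voom (at an unadjusted p under 0.05, 0 with shCENPA1, and 1 lower and 1 higher with shCENPA2), with values of 0.14 and 0.27, 0.25 and 0.20, and -0.15 and -0.27. Beside the shares of all genes given above, 0 of 3 does not set these genes apart either.

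Proliferation markers moved in the same direction as HJURP, OIP5 and MIS18A. All 10 markers on the list passed downward with both hairpins, where 4.45% and 10.5% of all genes tested did. Their median log2 fold change was -1.12 and -1.59. Their summed level was 8.63 to 8.65 log2 RPKM with shNT, 7.54 to 7.67 with shCENPA1 and 7.19 to 7.24 with shCENPA2. HJURP lay beyond the median of these markers with both hairpins, OIP5 near it and MIS18A above it. The part of proliferation in the fall of the loading genes was not tested.

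The genes whose pattern was most like that of CENPA and of HJURP were sought among the 12049 genes whose mean log2 RPKM reached 0, by the root mean square difference over the 6 libraries after centring each gene on its shNT mean. For HJURP these were NUSAP1 (0.06), SKA3 (0.06), NEK2 (0.07), NDC80 (0.08) and KIF11 (0.08). NUSAP1, NEK2 and KIF11 encode spindle or centrosome proteins and SKA3 and NDC80 outer kinetochore subunits. Among the members, OIP5 came nearest to HJURP, at rank 110 (0.25), followed by CENPA at rank 421 (0.66) and MIS18A at rank 516 (0.73). For CENPA the nearest were RP11-613M10.6 (0.25), FAM174B (0.35), IGFBP3 (0.38), FZD4 (0.40) and POLR1E (0.41), of which IGFBP3 encodes an insulin-like growth factor binding protein and FZD4 a Wnt receptor. HJURP was at rank 34 for CENPA (0.66), OIP5 at rank 148 and MIS18A at rank 553, while DAXX was the most distant member, at rank 5724. The likeness is taken from the same libraries and is a description.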

How the data were processed

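RNA-seq of 12 runs (6 libraries in 2 lanes each) was analysed. By the study's methods, the authors used Trim Galore for trimming, STAR for alignment to hg38, HTSeq for counting and edgeR for testing, with versions and the strand setting of the counting not given in the sources used here. For each run, log2 RPKM of 14828 genes was deposited by the authors. Values were used as deposited, with no further constant. The steps between low values gave back whole reads for 14828 of 14828 genes (largest distance from a whole number 3.6e-08), which gave the depth, 39560479 to 66602352 reads per run.

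Lanes of one library differed by little more than sampling noise (chi-square per gene 1.24 to 1.31, where 1 is noise alone) against 26.5 to 80.1 between libraries, and were averaged. The 14624 genes averaging -3 log2 RPKM or more entered a fit in limma 3.58.1 (R 4.3.3; lmFit, eBayes with a trend), 3 groups in one fit, no covariate, with Benjamini-Hochberg adjustment over all genes tested. The test was checked on simulated data. Positions are from GENCODE 44 and promoters from RefSeq (GRCh38.p14).

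The members and gene lists were chosen with earlier results of these data known, and no list is independent evidence. Every member and every gene of the licensing list is named, apart from 1 gene that is not reported here and enters no count of that list; of other lists, at most 4 genes past the test with both hairpins; and the 5 genes nearest to CENPA and HJURP in pattern. Alternatives were lanes as replicates (also with an estimated correlation) or alone, a replicate block, other filters (none, 0), constants (0.1 and 1), scalings, no variance trend, fits of only the groups compared, each library left out, and limma voom on recovered reads. Leaving out libraries for the ratios was added after seeing the data.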

Additional observations from a re-analysis of the deposited data

Results flagged for a closer look

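CENPA differed between the hairpins under the same comparison with shNT. It was lower with shCENPA2 than with shCENPA1 by a test of the difference itself, at -0.98 on the log2 scale (limma adjusted p = 0.0209), and lower in 2 of 2 libraries. Over 20 alternatives the value ranged from -1.02 to -0.50 and the limma adjusted p from 1.77e-05 to 0.212, and 5 of them lost the call. The other 8 members did not pass this test.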

How the results depend on the processing

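CENPA, HJURP and OIP5 kept their direction and their call with both hairpins against shNT under all 20 alternatives, as did MIS18A with shCENPA2. MIS18A with shCENPA1 kept the call in 16 of 20 and NPM1 with shCENPA2 in 13 of 20, as given above. Depth limits CENPA most, at 118 reads in its lowest library, and 2 libraries per hairpin limit the rest.

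With lanes as 4 replicates, genes of the further pathway lists past the test numbered 26 with each hairpin, against 11 with shCENPA1 and 13 with shCENPA2, and with an estimated lane correlation 21 with shCENPA2. Between the hairpins these settings called 5 and 3 members in place of 1. The shares of all genes called under these settings were not counted, so these numbers show the effect of the setting and are no result about the lists or members. With 1 added to RPKM, and with voom on recovered reads, 0 members passed (4 at an unadjusted limma p under 0.05 without these changes), with CENPA at -0.50 (limma adjusted p = 0.0601) and -0.95 (0.0981). Adding 1 moved the rise of the log2 ratio of HJURP over CENPA to 0.10 and 0.35, and that of DAXX over HJURP to 1.28 and 1.38.

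Leaving out 1 library gave 0 to 1 members between the hairpins, with CENPA at -1.02 to -0.94. The rise of HJURP over CENPA was then 0.25 to 0.55 with shCENPA1 and 0.90 to 1.21 with shCENPA2, that of DAXX over HJURP 1.38 to 1.61 and 1.52 to 1.75, and the change of RBBP7 over RBBP4 0.03 to 0.08 and -0.13 to 0.03. The sign turned without library 2 of shCENPA2 for RBBP7 over RBBP4 (0.03), for DAXX with shCENPA2 (0.03, and 0.03 without library 1 of shNT, in a range of -0.17 to 0.03) and for RBBP4 between the hairpins (-0.06 to 0.09). It also turned without library 1 of shCENPA1 for NPM1 with shCENPA1 (-0.24 to 0.08) and without library 2 of shCENPA1 for DAXX (-0.03 to 0.26) and ATRX (-0.41 to 0.03). None of the genes named in these 2 sentences had passed the test in that comparison. The cause was not tested.

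Same-numbered libraries did not deviate together (correlations across genes of -0.06, -0.10 and -0.15), so no large shift shared by number was seen. Whether same-numbered libraries were prepared together cannot be told from this. With the replicate block, NPM1 with shCENPA2 was -0.42 (limma adjusted p = 0.0575), the only member call it changed.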

Other observations

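Some genes of the lists differed more between the libraries of shCENPA1 than elsewhere, and these were chosen after their values were seen. The libraries of shCENPA1 also differed most over genes in general, with a chi-square per gene of 80.1 against 26.5 with shNT and 54.9 with shCENPA2. The differences below are thus not particular to these genes. ATRX was lower in library 2 than in library 1, a gap of 0.44 log2 units against a counting error of 0.019. BPTF, a partner of RBBP4 in the NURF remodeller, was 3.00 and 2.54, UBN2 of the H3.3 pathway was 2.50 and 2.11, and GATAD2B of the NuRD complex was 0.94 and 0.12, all lower in library 2. DAXX (2.53 and 2.83), NPM1 (7.25 and 7.56) and NPM3 (5.39 and 5.73) were higher in library 2.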
